A study of Mus musculus with 24 samples.

Results

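The 10 genes described here are the genes by which astrocytes of the brain are commonly recognised. They are Gfap, Aqp4, Aldh1l1, Slc1a2, Slc1a3, Gja1, S100b, Sox9, Aldoc and Glul, chosen by gene name from the 57180 genes in the deposited table of normalised counts. Each of the 10 names matched 1 gene, and all 10 passed the filter on low values, as did 16578 genes in all. RNA was sequenced from frozen punches of frontal cortex of male wild-type C57BL/6 mice, which were 4 weeks old and received 1 intraperitoneal injection a day for 28 days. The 4 groups of 6 libraries each, 24 in all, received vehicle, sarcosine at 100 mg/kg, memantine at 20 mg/kg, or both drugs at these doses, here called the combination. Sarcosine inhibits the glycine transporter GlyT1, which removes a co-agonist of NMDA receptors from the synapse, and memantine blocks the open channel of these receptors. The labels number the libraries within a group and do not say that each came from another animal, so p-values measure the spread between libraries.

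Astrocytes take up the glutamate that neurons release. The transporters encoded by Slc1a2 (GLT-1) and Slc1a3 (GLAST) carry it into the cell, and glutamine synthetase, encoded by Glul, turns it into glutamine that returns to neurons. Gap junctions built from connexin 43, the product of Gja1, couple astrocytes into a network, and the water channel encoded by Aqp4 sits mostly in the endfeet around blood vessels. Gfap encodes the intermediate filament that is higher in white matter and in reactive astrocytes, and its transcription is a known target of STAT3. S100b encodes a calcium-binding protein, Aldoc the brain form of aldolase in glycolysis, Aldh1l1 a folate enzyme and Sox9 a transcription factor of the astrocyte lineage. S100b, Glul and Sox9 are not confined to astrocytes, since oligodendrocytes also make S100b and Glul, and neural progenitors and ependymal cells make Sox9.

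The 250 bases before the annotated start are shown for 5 members. Aldoc has the only call among the members, and Gfap, Gja1 and Slc1a3 vary together. Slc1a2 tends to be lower where Gfap is higher (r = -0.55 with group means removed). Sequences are from RefSeq on build GRCm38.p6, 5′ to 3′ on the strand of the gene, and capitals mark the palindrome TTCNNNGAA to which STAT proteins bind.
Aldoc, second start, chr11:78323948-78324197, plus strand: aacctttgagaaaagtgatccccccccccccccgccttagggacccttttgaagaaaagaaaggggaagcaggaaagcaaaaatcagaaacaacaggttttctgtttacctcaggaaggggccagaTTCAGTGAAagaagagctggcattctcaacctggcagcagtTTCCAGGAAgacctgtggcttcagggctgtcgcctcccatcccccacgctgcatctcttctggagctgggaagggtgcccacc
Slc1a3, chr15:8710808-8711057, minus strand: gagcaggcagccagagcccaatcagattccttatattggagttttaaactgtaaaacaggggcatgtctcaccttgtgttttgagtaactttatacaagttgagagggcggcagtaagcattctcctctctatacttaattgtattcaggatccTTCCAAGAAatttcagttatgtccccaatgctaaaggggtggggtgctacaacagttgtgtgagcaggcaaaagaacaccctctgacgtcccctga
Gja1, chr10:56377050-56377299, plus strand: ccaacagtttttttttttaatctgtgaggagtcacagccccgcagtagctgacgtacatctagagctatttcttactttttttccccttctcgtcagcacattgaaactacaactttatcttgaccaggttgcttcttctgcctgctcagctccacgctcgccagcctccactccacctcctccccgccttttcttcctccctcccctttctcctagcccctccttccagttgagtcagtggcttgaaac
Gfap, chr11:102897201-102897450, minus strand: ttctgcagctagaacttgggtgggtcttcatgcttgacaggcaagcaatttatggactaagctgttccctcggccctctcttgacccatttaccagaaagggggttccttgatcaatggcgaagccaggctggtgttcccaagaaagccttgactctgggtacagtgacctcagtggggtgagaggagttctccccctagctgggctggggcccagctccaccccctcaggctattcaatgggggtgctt
Slc1a2, chr2:102706188-102706437, plus strand: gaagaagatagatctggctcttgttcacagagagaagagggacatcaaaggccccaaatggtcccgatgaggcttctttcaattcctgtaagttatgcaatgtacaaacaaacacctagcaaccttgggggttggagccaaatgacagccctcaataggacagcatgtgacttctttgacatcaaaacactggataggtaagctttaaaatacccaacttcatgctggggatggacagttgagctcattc
Windows were read for 8 of the 10 members: Sox9 had no promoter entry, and the window of Aqp4 was not read. The STAT palindrome, searched on both strands, was in the window of Slc1a3, 96 bases before the start, and in that of the second start of Aldoc, 124 and 83 bases before it. It was in none of the other windows read, those of Gfap and of the first start of Aldoc included. Of 32851 promoters of the same length, 7.02% held it. Which start of Aldoc was in use was not tested. The letters TATAAA on the strand of the gene were in none of the windows read and in 7.59% of all promoters. The windows read ranged from 44.8% to 64.8% G and C, beside a median of 52.4% over all promoters. These matches describe the letters of the windows, and no binding was measured.

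Between 12678114 and 21844579 reads per library stood behind the normalised counts, with 17008198 or more in every sarcosine library and 17425235 or fewer in every vehicle library. Markers of other regions and cell types varied among the 6 libraries of each group. In normalised counts, Slc17a7, which loads glutamate into the vesicles of cortical neurons, lay between 3901 and 44936. The myelin gene Mbp lay between 12037 and 128952, Cdhr1 (output neurons of the olfactory bulb) between 71.2 and 3464, Drd1 (striatum) between 126 and 1313, and Ttr (choroid plexus) between 0.897 and 52720. Ttr was above 10000 in sarcosine replicate 1, memantine replicate 3 and combination replicate 1. All 10 cortical excitatory, 10 striatal, 10 myelin and 8 neuroblast markers were above 0 in all 24 libraries. Of 10 olfactory bulb markers, Tbx21 and Slc6a3 were at 0 in 1 library each, Ms4a15 in 3 and Lhx1 in 5. Of 8 choroid plexus markers 3 were at 0 in some library, and of 7 ependymal markers 2.

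All 10 members were abundant. Per kilobase of the longest annotated transcript, Glul stood highest, with 10146 ± 1100 normalised counts per kilobase (mean ± SD over 24 libraries). Aldoc followed with 4570 ± 489, Slc1a2 with 2908 ± 266 and Slc1a3 with 2355 ± 280. Next were Gfap with 1200 ± 475, S100b with 952 ± 244 and Gja1 with 932 ± 159 normalised counts per kilobase. Aqp4 had 379 ± 67.8, Aldh1l1 229 ± 30.3 and Sox9, the only transcription factor, 187 ± 57.1. Some neighbours in this order did not overlap in any library: Glul and Aldoc, Aldoc and Slc1a2, and Gja1 and Aqp4. All other neighbours overlapped, and the differences among Gfap, S100b and Gja1, and between Aldh1l1 and Sox9, were smaller than the larger SD of each pair. Slc1a2 had the most reads of the members, 33720 normalised counts on average against 28326 for Glul, and stood below Aldoc per kilobase because its longest transcript has 11595 bases. Where most of the mRNA is a shorter form, this scale places the gene too low.

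**Figure D1:**
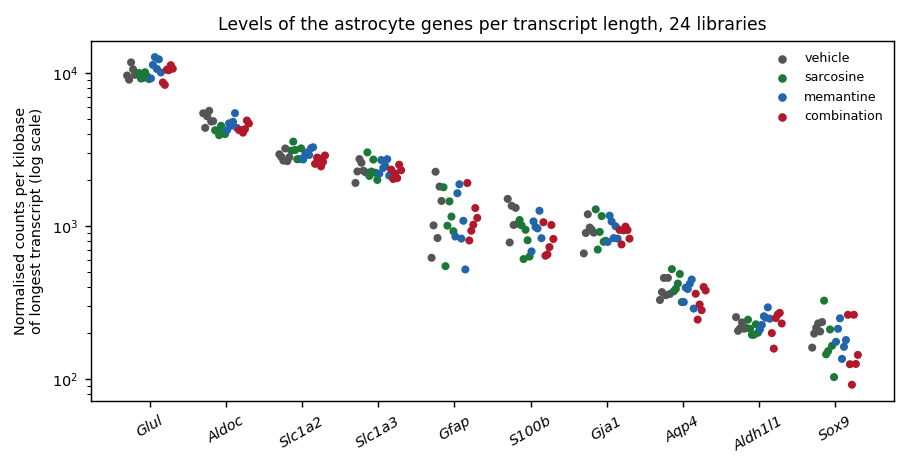
Normalised counts per kilobase of longest transcript (log axis) of the 10 members, with 1 point per library and 6 libraries in each of the 4 groups. Glul, at 8349 to 12673, and Aldoc, at 3923 to 5654, stand above the rest, and the points of a gene spread over a narrower range than the distance from Glul to Sox9.

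The members differed widely in how much they varied among libraries of the same group. Gfap ranged from 1381 normalised counts in memantine replicate 6 to 5997 in vehicle replicate 3, a 4.34-fold range over the 24 libraries. Sox9 covered a 3.54-fold range and S100b a 2.47-fold range. Aldoc covered 1.44-fold and Slc1a2 1.45-fold, the narrowest of the 10. Within groups, the SD on the log2 scale was 0.61 for Gfap, above that of 86.1% of tested genes, and 0.46 for Sox9, above 75.5%. It was 0.11 for Aldoc and Slc1a2, above that of 11.1% and 10.6% of tested genes, beside a median of 0.25 over all genes. In none of the 40 sets of 6 values, 1 for each member and group, did a library stand apart by Dixon's criterion at the 95% level.

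**Figure D2:**
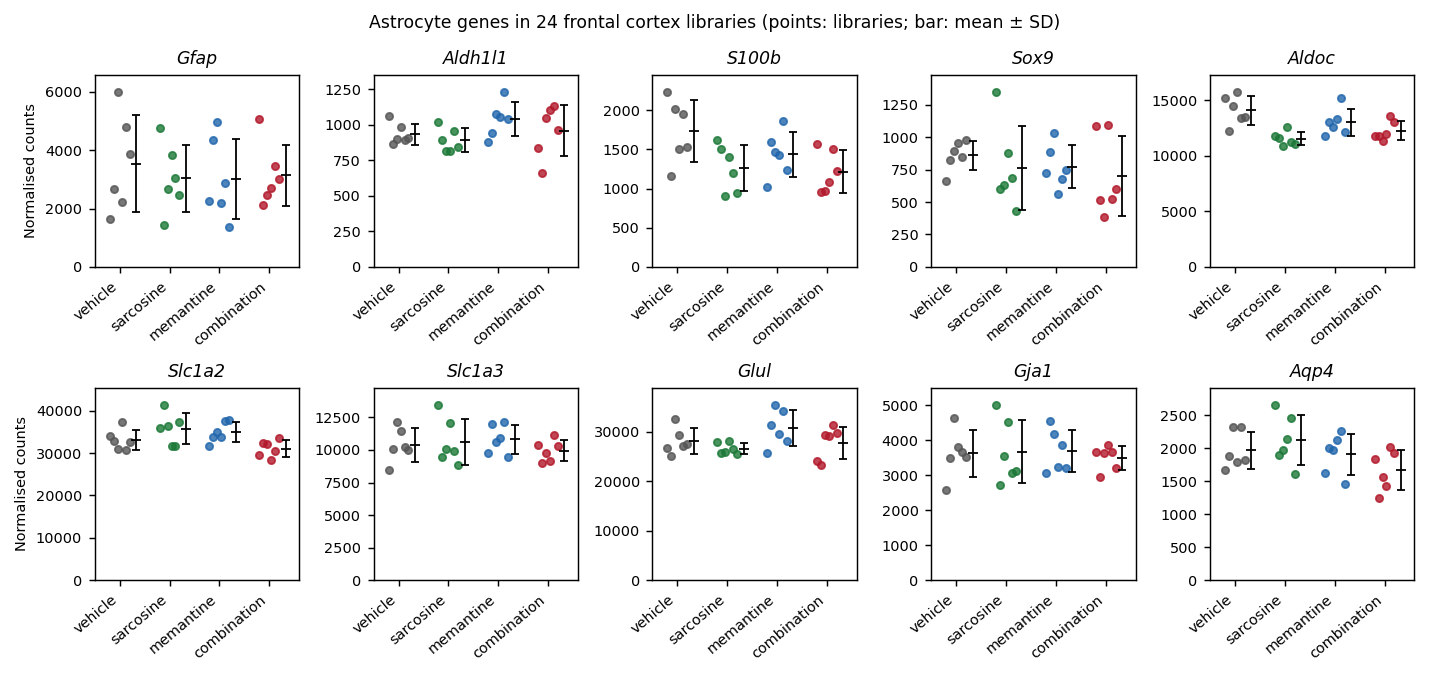
Normalised counts of each member (linear axes from 0) in the 6 libraries of vehicle, sarcosine, memantine and combination, with bars for the group mean ± SD. Gfap spreads from 1381 to 5997 with all 4 groups overlapping, while Aldoc lies at 10928 to 12576 with sarcosine and at 12196 to 15753 with vehicle.

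With sarcosine alone, Aldoc was the only member that passed the test. Vehicle libraries had 12196, 13994 and 15753 normalised counts of Aldoc (lowest, median and highest of 6), and sarcosine libraries 10928, 11454 and 12576. All 6 sarcosine libraries were below the vehicle mean and 5 were below every vehicle library. The groups overlapped only through vehicle replicate 2, the lowest vehicle library, which sarcosine replicate 4 exceeded. Aldoc fell from 14091 ± 1305 to 11549 ± 595 (SD, n = 6), a log2 difference of -0.28 (SE 0.071, 95% interval -0.43 to -0.14, limma adjusted p = 0.0128). Thus 1 of 10 members was called, and it was lower, beside 9.34% of all tested genes called in this comparison, of which 4.62% were lower and 4.72% higher. For 0 of the 10 members were the groups free of overlap, beside 4.11% of all genes. In bulk tissue, fewer astrocytes and less RNA per astrocyte cannot be told apart.

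The Aldoc call ended in 3 of 13 settings other than leaving out 1 library, while the difference stayed between -0.33 and -0.23 in all of them. With scores for olfactory bulb, striatal, myelin and choroid plexus markers as covariates, the difference was -0.26 (adjusted p = 0.0641). With a correction of each library for transcript length and GC content it was -0.23 (adjusted p = 0.106). Among the 15 libraries scoring low for olfactory bulb markers it was -0.27 (adjusted p = 0.135). That fit held only 4 vehicle and 4 sarcosine libraries and called 49 genes in all, against 1548 with all libraries. The call held when each of the 24 libraries was left out in turn, with differences from -0.32 to -0.25. The 4 region scores took 34.9% of the variance of Aldoc within groups, beside a median of 44.8% over all genes. The groups took 51.2% of its variance, the highest share among the members beside a median of 15.3% over all genes.

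S100b had the lowest log2 difference with sarcosine and did not pass the test. Its normalised counts were 1161, 1745 and 2234 with vehicle (lowest, median and highest) and 905, 1303 and 1626 with sarcosine. All 6 sarcosine libraries were below the vehicle mean, but only 2 were below the lowest vehicle library. The difference was -0.46 (SE 0.18, 95% interval -0.83 to -0.086, limma adjusted p = 0.117). Without vehicle replicate 2, the lowest vehicle library, it was -0.57 and passed (adjusted p = 0.0445). The region scores took 78.0% of the variance of S100b within groups.

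The other 8 members did not pass with sarcosine. Among the genes of glutamate handling, the difference was 0.11 for Slc1a2 (95% interval -0.053 to 0.27), 0.025 for Slc1a3 (-0.18 to 0.23) and -0.077 for Glul (-0.26 to 0.11). Gja1 was at 0.0042 (-0.29 to 0.30) and Aqp4 at 0.10 (-0.18 to 0.38). Gfap was at -0.17 with the widest interval of the members, -0.86 to 0.51, and the largest spread between libraries. Sox9 was at -0.26 (-0.77 to 0.25) and Aldh1l1 at -0.071 (-0.29 to 0.15). The median of the 10 members was -0.074, beside -0.0032 over all genes, and 4 of the 10 were above 0.

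**Figure D3:**
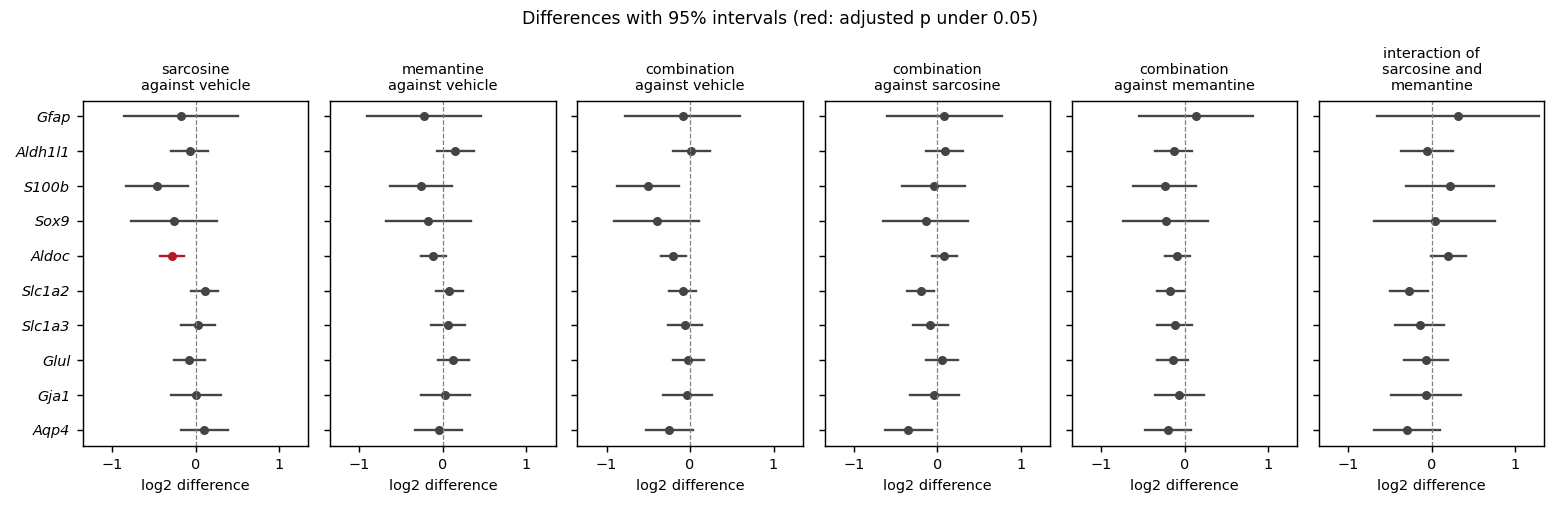
Log2 differences of the 10 members in the 5 group comparisons and the interaction, as points with 95% intervals from limma. Aldoc with sarcosine against vehicle, at -0.28, is the only call, drawn in red, and the intervals of Gfap and Sox9 are the widest.

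Other astrocyte-enriched genes are given from lists chosen with earlier results of these data known. Of 20 such genes 3 were called lower with sarcosine and 0 higher, beside 4.62% and 4.72% of all tested genes. Their median was -0.15, beside -0.0032 over all genes. Mt3, a metal-binding metallothionein of brain, averaged 6760 ± 844 normalised counts in vehicle libraries and 4770 ± 870 in sarcosine libraries, a log2 difference of -0.51 (limma adjusted p = 0.00734). Ntsr2, a neurotensin receptor, went from 1836 ± 201.2 to 1464 ± 152, a difference of -0.33 (limma adjusted p = 0.0239). Ndrg2, a stress-related protein of the NDRG family, went from 10495 ± 1014 to 8811 ± 1007, a difference of -0.26 (limma adjusted p = 0.0387). These calls ended with the length and GC correction, where Mt3 was at -0.29 (adjusted p = 0.21), Ntsr2 at -0.27 (0.128) and Ndrg2 at -0.15 (0.473), and in the low-bulb libraries. With the region scores as covariates Mt3 kept its call, while Ntsr2 (adjusted p = 0.0674) and Ndrg2 (0.0616) lost it, as they did without the filter on low values (0.0547 and 0.0974). Ndrg2 also lost its call with the replicate block (0.0519) and with 2 groups only in the fit (0.12). With 1 library left out in turn, Mt3 was called in 24 of 24 fits, Ntsr2 in 18 and Ndrg2 in 17.

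In each of 3 lists beside the members' roles, 1 gene was called higher with sarcosine and 0 lower. Of all tested genes, 4.72% were called higher and 4.62% lower. Of 18 other genes of the glutamate-glutamine cycle, Slc38a1 was called, a transporter that brings glutamine into neurons. It rose from 3434 ± 305 to 4205 ± 456 normalised counts, a log2 difference of 0.29 (limma adjusted p = 0.0155). Of 12 other connexins, pannexins and scaffold genes, Tjp1 was called, which encodes the junction scaffold ZO-1 that binds connexin 43 and is also present in endothelium. It rose from 1412 ± 130 to 1793 ± 194, a difference of 0.34 (limma adjusted p = 0.0124). Of 8 genes of the endfoot complex that anchors aquaporin 4, Dag1 was called, which encodes dystroglycan. It rose from 1804 ± 71 to 2160 ± 158, a difference of 0.26 (limma adjusted p = 0.00942). Differences above 0 numbered 15 of 18 in the cycle list, 5 of 12 in the junction list and 6 of 8 in the endfoot list. The medians were 0.071, -0.18 and 0.16, so Tjp1 rose in a list whose median was below 0. Each of the 3 calls ended with the length and GC correction, where the differences were 0.086 for Slc38a1, 0.14 for Tjp1 and 0.13 for Dag1, and in the low-bulb libraries (adjusted p = 0.257, 0.193 and 0.129). With the region scores as covariates Slc38a1 (0.109) and Tjp1 (0.117) lost their calls, and Slc38a1 also did so with 2 groups only in the fit (0.0584). Of 16 tested reactive astrocyte genes limma called 0 with sarcosine (3 at an unadjusted p under 0.05), and the smallest p belonged to Stat3 at 0.27 (adjusted p = 0.0569) and Gbp2 at 0.73 (adjusted p = 0.135).

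Markers of other cells are given for the same comparison, and of the lists named here only that of microglia held called genes. Summed markers of microglia were at 8293 to 10878 normalised counts with vehicle and 7636 to 8718 with sarcosine. Of the 10 microglial genes 4 were called lower, beside 4.62% of all tested genes. Summed endothelial markers were at 5750 to 8009 with vehicle and 6972 to 8401 with sarcosine, and 0 of 10 were called (5 at an unadjusted p under 0.05). Summed striatal markers lay between 4584 and 10293 in vehicle libraries and between 4199 and 35639 in sarcosine libraries. All 10 striatal log2 differences were above 0, and none was called (1 at an unadjusted p under 0.05). Of the 10 myelin differences 0 were above 0, with a median of -0.48, and none was called (0 at an unadjusted p under 0.05). The part of microglia and endothelium in the members' values was not tested.

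With memantine alone, no member passed the test. Limma called 0 of 10 members, 0 of them at an unadjusted p under 0.05, beside 0.0121% of all genes. On the recovered reads edgeR and DESeq2 called 0 members as well, beside 3 and 424 genes in all. Aldoc had 11789, 12816 and 15209 normalised counts (lowest, median and highest), with 5 of 6 libraries below the vehicle mean, and a difference of -0.11 (95% interval -0.26 to 0.034, limma adjusted p = 0.497). Glul had its highest library here, memantine replicate 3 with 35382, and a difference of 0.12 (-0.062 to 0.31). Aldh1l1 differed by 0.15 (-0.073 to 0.37) and S100b by -0.27 (-0.64 to 0.11). The groups overlapped for all 10 members, while they did not for 2.2% of all genes. The members lay on both sides of 0, 5 above it, with a median of -0.0089.

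In the 5 other astrocyte lists no gene passed with memantine either, and genes with the smallest p-values are given as values. Among other astrocyte genes they belonged to Mt3 at -0.31 (adjusted p = 0.209) and Nfia, a transcription factor of gliogenesis, at -0.26 (0.256). In the cycle list they belonged to the glutamine transporters Slc38a1 at 0.26 (0.113) and Slc38a2 at 0.32 (0.249). Among junction genes they belonged to the connexin gene Gja4 at -0.63 (0.131) and to Tjp1 at 0.27 (0.133), and among endfoot genes to Dag1 at 0.15 (0.246). Of reactive genes they belonged to Stat3 at 0.23 (0.203) and the small heat shock protein gene Hspb1 at 0.69 (0.216).

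With the combination, no member passed against vehicle, although 9 of the 10 differences were below 0. Limma called 0 of 10 members (2 at an unadjusted p under 0.05), and edgeR and DESeq2 also called 0, beside 0.543% of all genes called by limma. That share rests on 90 genes, and on 1 to 361 with 1 library left out. Over all genes, edgeR called 70 and DESeq2 473. S100b had 951, 1153 and 1573 normalised counts with the combination, with 6 of 6 libraries below the vehicle mean, and a difference of -0.50 (95% interval -0.88 to -0.13, limma adjusted p = 0.175). Aldoc had 11347, 11886 and 13617, again with 6 of 6 below the vehicle mean, and a difference of -0.20 (-0.35 to -0.052, limma adjusted p = 0.175). These are the members at an unadjusted p under 0.05, and for no member were the groups free of overlap, beside 1.15% of all genes. The comparisons with vehicle share the same 6 vehicle libraries, so a high or low vehicle value enters all 3.

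Aqp4 had 1666, 1849 and 2323 normalised counts with vehicle and 1241, 1693 and 2024 with the combination. The groups overlapped, with 3 combination libraries below every vehicle library. The difference was -0.25 (95% interval -0.53 to 0.034, limma adjusted p = 0.427), and with the region scores as covariates it was -0.46 and passed (adjusted p = 0.0316). Those scores took 83.9% of the variance of Aqp4 within groups, the highest share among the members beside a median of 44.8% over all genes.

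Of 16 tested reactive astrocyte genes, 2 rose with the combination against vehicle and 0 fell, beside 0.543% of all genes called in either direction. Of the 16 differences 12 were above 0, and 7 genes had an unadjusted p under 0.05, beside 2361 of all 16578 genes. Gfap was not called, at -0.089 (95% interval -0.78 to 0.60). Serpina3n, a secreted protease inhibitor, had 208, 233 and 309 normalised counts with vehicle and 282, 569 and 837 with the combination, a difference of 1.09 (limma adjusted p = 0.0427). Lcn2, encoding the secreted iron-siderophore binder lipocalin 2, had 3.94, 10.1 and 34.5 with vehicle and 7.58, 610 and 711 with the combination, a difference of 4.21 (limma adjusted p = 0.0427). At least 1 combination library was thus within the vehicle range for Serpina3n and for Lcn2. Neither call was firm: leaving out 1 library in turn ended it in 14 of 24 fits for Serpina3n and in 15 for Lcn2. Both calls also ended without the filter on low values, with 2 groups only in the fit, with the region scores, with the length and GC correction and in the low-bulb libraries, and that of Serpina3n with the replicate block (adjusted p = 0.0577). Of 10 endothelial markers 1 was called, Slc2a1, the glucose transporter GLUT1, named here after its values were seen. It rose from 1683 ± 269 to 2888 ± 776 normalised counts, a difference of 0.75 (limma adjusted p = 0.0455). Only 4 of the 10 endothelial differences were above 0, with a median of -0.057. The summed markers, Slc2a1 among them, were at 5750 to 8009 with vehicle and 6755 to 9211 with the combination. The part of endothelium in these values was not tested. In the 4 other astrocyte lists no gene passed. Genes among those with their smallest p-values were Mt3 at -0.40 (adjusted p = 0.0982), Nfia at -0.34 (0.131), Slc38a2 at 0.30 (0.3), Slc38a5 at -0.51 (0.326), Panx2 at -0.21 (0.423), Gjb2 at -0.58 (0.509) and Kcnj16 at -0.21 (0.514).

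Against either drug alone, the combination libraries were lower in Slc1a2 without passing the test. Slc1a2 had 30781, 32726 and 37238 normalised counts with vehicle (lowest, median and highest), 31693, 36214 and 41285 with sarcosine and 31581, 34474 and 37925 with memantine. With the combination it had 28450, 31256 and 33510, and all 6 of these libraries were below the sarcosine mean and below the memantine mean. The groups overlapped in each case, as for all members, while 0.386% of all genes did not overlap between the combination and sarcosine, and 0.531% between the combination and memantine. The difference from sarcosine was -0.20 (95% interval -0.36 to -0.037, limma adjusted p = 0.458) and that from memantine -0.17 (-0.33 to -0.0084, limma adjusted p = 0.607).

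The comparison with sarcosine held 0 called genes of 16578, a share of 0%, with limma (1443 at an unadjusted p under 0.05, 0 with edgeR and 45 with DESeq2). No member was among the genes called by any of the 3 tools, and 2 members, Slc1a2 and Aqp4, had an unadjusted p under 0.05. Aqp4 was at 1615, 2052 and 2649 normalised counts with sarcosine, all 6 combination libraries were below the sarcosine mean, and the difference was -0.35 (95% interval -0.63 to -0.068, limma adjusted p = 0.452). With the region scores as covariates it was -0.37 and passed (adjusted p = 0.0303). The smallest p-values of the other lists belonged to the metallothioneins Mt1 at 0.63 (adjusted p = 0.36) and Mt2 at 0.89 (0.391), Slc38a5 at -0.73 (0.37), Slc1a4 at -0.21 (0.452), Tjp1 at -0.26 (0.369) and Gjb6 at 0.53 (0.372). Endfoot and reactive genes were led by Dag1 at -0.18 (0.385), Dtna at -0.12 (0.64), Serpina3n at 0.89 (0.31) and S1pr3 at -0.34 (0.415).

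In the comparison with memantine, limma called 0 members (1 at an unadjusted p under 0.05, which was Slc1a2), beside 0.0543% of all genes. Of the members edgeR and DESeq2 also called 0, beside 10 and 61 genes in all. All members but Gfap, at 0.14, had differences below 0, down to -0.24 for S100b and with a median of -0.14. Serpina3n came nearest to a call among the listed genes at 1.23 (limma adjusted p = 0.0575), followed by Lcn2 at 3.23 (0.295). Others among those with the smallest p-values were Atp1b2 at -0.18 (0.725), Slc38a1 at -0.13 (0.75), Slc1a6 at -0.19 (0.827), Gja4 at 0.65 (0.3), Tjp1 at -0.19 (0.57), Kcnj10 at -0.21 (0.876) and Dag1 at -0.072 (0.916).

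The interaction asks whether the combination differs from the sum of both drugs on the log2 scale. Limma called 0 members (1 at an unadjusted p under 0.05) beside 1.82% of all genes, a share whose count went from 301 to between 0 and 983 with 1 library left out. For Slc1a2 it was -0.28 (95% interval -0.50 to -0.049, limma adjusted p = 0.181), which DESeq2 on the recovered reads called at the same size (adjusted p = 0.0479) and edgeR did not. With the length and GC correction it was 0.034, on the other side of 0. Aldoc was at 0.20 (-0.010 to 0.41, limma adjusted p = 0.329), so its fall with sarcosine was not shown to differ by memantine. Among listed genes, Slc38a1 at -0.42 (limma adjusted p = 0.0447) and Tjp1 at -0.54 (limma adjusted p = 0.037) were called. In the list of Slc38a1 3 of 18 values were above 0, with a median of -0.13. In that of Tjp1 8 of 12 were above 0, with a median of 0.13, so Tjp1 went against its list. Neither call was firm. Both ended with the length and GC correction, at -0.18 and -0.30, with the replicate block (adjusted p = 0.0686 and 0.0506), with the region scores (0.0519 and 0.0556), without the filter, and in the low-bulb libraries and in those with at most 10000 normalised counts of Ttr. That of Slc38a1 also ended with upper-quartile scaling (0.0835). Leaving out 1 library in turn ended the call in 19 of 24 fits for Slc38a1 and in 12 for Tjp1. Of 10 microglial markers, 4 were called higher in the interaction, and their part was not tested. The next were Dag1 at -0.33 (0.0504), Kcnj10 at -0.50 (0.263), Ntsr2 at 0.33 (0.167), Mt3 at 0.42 (0.178), Serpina3n at 1.03 (0.104) and Aspg at 0.88 (0.506).

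Among libraries of the same group, several members were higher where the RNA of cortical neurons was lower. A score of 10 cortical excitatory markers, the mean of their log2 values after removing group means, was set against each member over the 24 libraries, with myelin as a further score, 20 relations in all. Gja1 had a Pearson r of -0.91 and a Spearman rho of -0.88 with the cortical score (permutation p = 1e-05 for both, the smallest that 100000 permutations within groups can give, adjusted p = 0.0001). Within the 4 groups r was between -0.96 and -0.85, and without vehicle replicate 3 and sarcosine replicate 1, the libraries farthest from the median score, it was -0.88. The groups took only 0.942% of the variance of Gja1. Libraries with little cortical excitatory RNA were thus high in Gja1, led by sarcosine replicate 1 with 5003 normalised counts and vehicle replicate 3 with 4649, while vehicle replicate 1 was lowest with 2581.

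Gfap and Slc1a3 did the same. Gfap had r = -0.81 and rho = -0.83 (permutation p = 1e-05, adjusted p = 0.0001), and r = -0.80 without those libraries. Slc1a3 had r = -0.82 and rho = -0.81 (permutation p = 7e-05, adjusted p = 0.000467), and r = -0.71 without them. Sox9 had r = -0.67 (rho -0.69, permutation adjusted p = 0.0013), Aqp4 -0.59 (rho -0.64, 0.0076) and Glul -0.49 (rho -0.58, 0.00489), and without those libraries r was -0.60, -0.48 and -0.43. The other 4 members did not pass. Their r was -0.45 for S100b (rho -0.45, adjusted p = 0.1), 0.44 for Slc1a2 (rho 0.51, 0.165), -0.19 for Aldoc (rho -0.25, 0.421) and -0.13 for Aldh1l1 (rho -0.11, 0.564). Slc1a2 was the only member with r above 0, and this held in all 4 groups, with r of 0.14 to 0.76.

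Gja1, Gfap and Sox9 were also higher in libraries with more myelin RNA. Both scores come from the same libraries, and whether the relations to them are separate was not tested. Sarcosine replicate 1 and vehicle replicate 3, lowest in the cortical score, had myelin scores of 1.517 and 1.508. Combination replicate 5 was below 0 in both scores. The r with the myelin score was 0.69 for Gja1 (rho 0.62, permutation adjusted p = 0.00228), 0.66 for Gfap (rho 0.58, 0.00489) and 0.61 for Sox9 (rho 0.58, 0.00522). Without memantine replicate 3 and combination replicate 1 it was 0.71, 0.57 and 0.52. For the other 7 members r was between -0.24 and 0.37 and did not pass. Libraries fell into separate clusters by the olfactory bulb score, so no r is given for it.

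**Figure D4:**
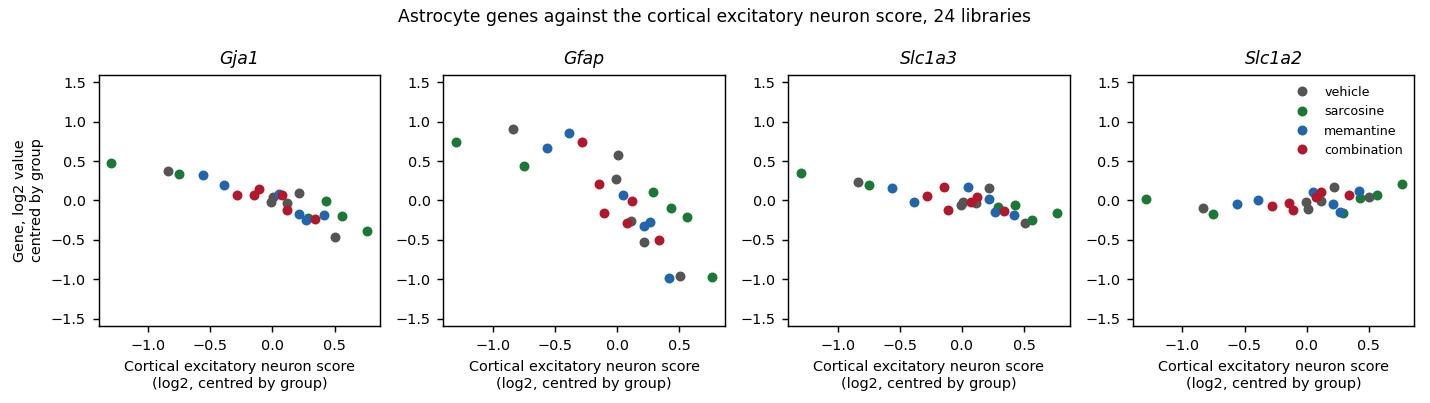
Log2 normalised counts of Gja1, Gfap, Slc1a3 and Slc1a2, with group means removed, against the score of 10 cortical excitatory markers, with 1 point for each of the 24 libraries coloured by group. Gja1 falls along the score (r = -0.91), Gfap and Slc1a3 fall with it, and Slc1a2 rises weakly (r = 0.44, not past the test).

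The members did not vary as 1 block. Over the 24 libraries, with group means removed, 15 of the 45 pairs of members had an r over 0.5 and 7 had an r below 0. These values are descriptions, since all pairs share the same libraries and their depth. The highest was 0.84 between Gja1 and Slc1a3, followed by 0.79 between Gfap and Gja1 and 0.76 between Slc1a3 and Aqp4. S100b and Aldoc varied together at 0.67, and Aldh1l1 and Glul at 0.66. The lowest was -0.55 between Gfap and Slc1a2, so the main glutamate transporter tended to be lower in libraries where the filament gene was higher. Slc1a2 and its relative Slc1a3 stood at -0.15.

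**Figure D5:**
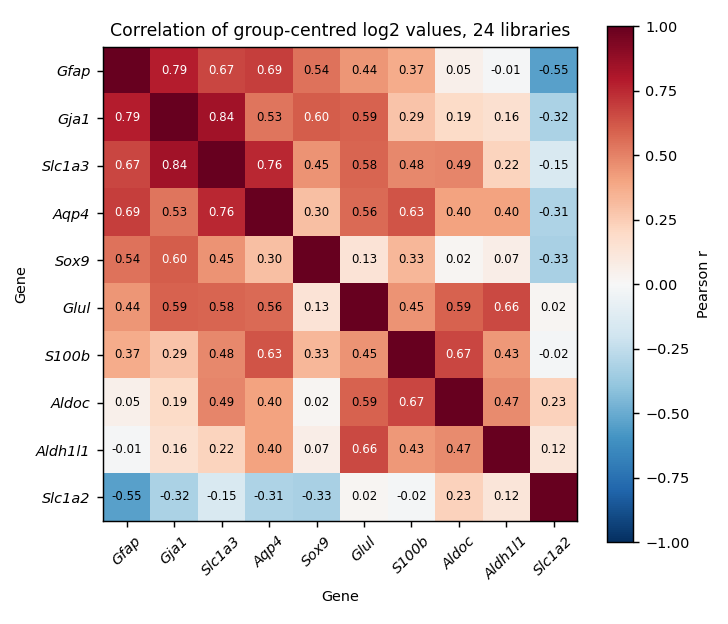
Pearson r between the members over the 24 libraries with group means removed, on a colour scale from -1 to 1. The block of Gfap, Gja1, Slc1a3 and Aqp4 has r between 0.53 and 0.84, and the row of Slc1a2 holds 6 of the 7 values below 0.

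Genes outside the list that came closest to each member were searched among 12260 genes with a mean of at least 50 normalised counts, by the same r. For Gfap they were C4b at 0.94, Tcf12 at 0.92 and Abca8a at 0.91. For Gja1 they were Rftn2 at 0.94, Zfp423 at 0.94 and Zbtb20 at 0.93, and for Slc1a3 they were Fads2 at 0.93, Cacng4 at 0.90 and Ednrb at 0.90. Aqp4 was nearest to Slc4a4 at 0.92, Sntb1 at 0.92 and Sp8 at 0.92, and Sox9 to Sox2 at 0.91, Nat8f4 at 0.90 and Nkx2-2 at 0.89.

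The partners of the other 5 members had r from 0.74 to 0.90. S100b was nearest to Rida at 0.90, Atp1b2 at 0.90 and Aldh1a1 at 0.90, and Glul to Acot11 at 0.87, G0s2 at 0.81 and Paqr8 at 0.79. Aldoc was nearest to Ntsr2 at 0.85, Timp4 at 0.81 and Ndrg2 at 0.80, of which Ntsr2 and Ndrg2 also fell with sarcosine. For Slc1a2 the closest were Traf3 at 0.82, Magi2 at 0.78 and Rab22a at 0.77, and for Aldh1l1 Aass at 0.77, Ubtd1 at 0.77 and Rbm45 at 0.74. Of all these partners, Slc4a4, Atp1b2, Ntsr2 and Ndrg2 are also in the list of other astrocyte genes, Sntb1 in the endfoot list, C4b in the reactive list and Sp8 in the neuroblast list.

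The annotation places other genes over 4 members, and whether counting used strand is not given in the sources used here. Aldh1l1 overlaps Gm15756, Slc1a2 overlaps Gm13872 and LOC115489466, Glul overlaps Mir8114 and Aqp4 overlaps A830021F12Rik, so reads of such a pair may be shared or lost.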

How the data were processed

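RNA of 24 libraries of mouse frontal cortex, 6 in each group, was analysed from 1 deposited table. The submitters' processing notes name build mm39 and the tools DESeq2 1.42.1, featureCounts 1.6.0, STAR and FastQC. The order of steps and the filters are not given in the sources used here. The deposited values are, by the values themselves, a normalised signal, each a read count divided by a size factor of its library. Dividing by the step of each library gave back whole reads for 100% of values (within 0.01 of a whole read), and the largest distance was 5.19e-05. The reads summed to 12678114 to 21844579 per library.

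Genes reaching a normalised count of 10 in 6 or more libraries were kept, which left 16578 of 57180. Group means were fitted to all 24 libraries with limma 3.58.1 (R 4.3.3) on log2(value + 1), with a mean-variance trend and no covariate. The 5 group comparisons and the interaction were read from it. Tests were two-sided, and a gene was called at an adjusted p under 0.05 (Benjamini-Hochberg, over all 16578). A log2 difference on log2(value + 1) understates the change of low genes. edgeR 4.0.16 and DESeq2 1.42.0 were run on the recovered reads, and called 1615 and 2135 genes with sarcosine against vehicle, beside 1548 with limma. Relations to marker scores were tested with 100000 permutations within groups in Python 3.11.15 with numpy 2.4.6.

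The members and lists were chosen with earlier results of these data known. Named genes are all 10 members in every comparison. From each of 5 other lists up to 4 called genes with the smallest p are named, or the 2 with the smallest p where none was called, and for each member the 3 genes nearest to it. Of the genes this rule takes, 2 are not reported here. Transcript lengths and GC content were those of GENCODE vM21, matched for 98.2% of tested genes, and the correction removed a loess trend (span 0.3) from each library. Promoter windows are from RefSeq on GRCm38.p6, another build than mm39. Alternatives covered the pseudocount, filter, scaling, libraries in the fit, a replicate block, the count tools, region scores as covariates, the length and GC correction and each library left out. A further 2 were chosen after seeing the data: the 15 libraries with an olfactory bulb score below 0, and the 21 libraries with at most 10000 normalised counts of Ttr. Scripts were tested on simulated counts.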

Additional observations from a re-analysis of the deposited data

How the results depend on the processing

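Across 13 settings other than leaving out a library (12 for the interaction), the 10 members in 6 contrasts kept their direction and side of the threshold in 727 values, reversed in 37, lost a call in 3 and gained one in 3. With each of the 24 libraries left out, 1389 values kept both, 50 reversed, 1 gained a call and 0 lost one. The cause of these changes was not tested. With sarcosine against vehicle, the number of members called was 0 instead of 1 with the region scores as covariates, with the length and GC correction and in the 15 low-bulb libraries, and it ranged from 1 to 2 with 1 library left out. It was 1 instead of 0 with the region scores for the combination against vehicle and against sarcosine (Aqp4 in both), and 1 instead of 0 with DESeq2 for the interaction (Slc1a2). None of the reversed values was called.

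With the length and GC correction, Slc1a2 was -0.14, Slc1a3 -0.0566, Gja1 -0.0443, Aqp4 -0.0143 for sarcosine against vehicle, Slc1a2 was -0.12 for memantine against vehicle, Aldh1l1 was -0.0185 for the combination against vehicle and Slc1a2 was 0.0341 for the interaction. In the low-bulb libraries, Slc1a3 was -0.0316 for memantine against vehicle, Aldh1l1 was -0.0264 for the combination against vehicle, Gfap was -0.18, Glul -0.0267 for the combination against sarcosine, Gfap was -0.0892 for the combination against memantine and Gfap was -0.0375, Sox9 -0.0596 for the interaction. Without the 3 libraries rich in Ttr, Slc1a3 was -0.0452, Gja1 -0.092 for sarcosine against vehicle, Gja1 was -0.00745 for memantine against vehicle, Glul was 0.0189 for the combination against vehicle, Gja1 was 0.0432 for the combination against sarcosine and Aldh1l1 was 0.0288, Glul 0.027, Gja1 0.0506 for the interaction. With the region scores as covariates, Slc1a3 was -0.12, Gja1 -0.20, Aqp4 -0.083 for sarcosine against vehicle, Slc1a3 was -0.0597, Gja1 -0.0504 for memantine against vehicle, Aldh1l1 was -0.11 for the combination against vehicle, Gfap was -0.00834 for the combination against sarcosine and Aldh1l1 was 0.028, Gja1 0.0213 for the interaction. With upper-quartile scaling, Slc1a3 was -0.0195, Gja1 -0.0407 for sarcosine against vehicle, Gja1 was -0.0149 for memantine against vehicle and Aldh1l1 was 0.0173, Glul 0.0092, Gja1 0.00776 for the interaction.

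With 1 library left out, the following log2 differences took both signs. For sarcosine against vehicle, Gfap ranged from -0.37 to 0.0207, Slc1a3 ranged from -0.0452 to 0.0743, Gja1 ranged from -0.092 to 0.082. For memantine against vehicle, Gja1 ranged from -0.0629 to 0.11, Aqp4 ranged from -0.10 to 0.0244. For the combination against vehicle, Gfap ranged from -0.28 to 0.0916, Aldh1l1 ranged from -0.0364 to 0.12, Glul ranged from -0.0559 to 0.0295, Gja1 ranged from -0.13 to 0.042. For the combination against sarcosine, Gfap ranged from -0.11 to 0.23, S100b ranged from -0.13 to 0.0351, Sox9 ranged from -0.29 to 0.0439, Gja1 ranged from -0.12 to 0.0581. For the combination against memantine, Gfap ranged from -0.0609 to 0.31. For the interaction, Aldh1l1 ranged from -0.11 to 0.0426, Sox9 ranged from -0.12 to 0.22, Gja1 ranged from -0.15 to 0.0273.

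Counts over all genes depended more on the setting. With sarcosine against vehicle 1548 genes were called, 2135 with DESeq2, 980 with 2 groups only, 989 without the filter, 1040 with region scores, 294 with the length and GC correction and 49 in the low-bulb libraries. Upper-quartile scaling gave 603 higher and 1177 lower, against 782 and 766. For the combination against vehicle 90 became 473 with DESeq2, 400 without the libraries rich in Ttr, 12 with region scores and 1 with 2 groups only. DESeq2 called 424 genes with memantine, against 2, and 45 for the combination against sarcosine, against 0. The interaction went from 301 to 935 with DESeq2 and to 0 with the length and GC correction. With 1 library left out, the counts ranged from 1078 to 1936 for sarcosine, 1 to 42 for memantine and 1 to 361 for the combination, each against vehicle. They ranged from 0 to 14 for the combination against sarcosine and 3 to 51 against memantine. For the interaction they ranged from 0 (without sarcosine replicate 2 or 5, memantine replicate 3 or 4, or combination replicate 1 or 4) to 983 (without combination replicate 6). The lowest count for the combination against vehicle came without vehicle replicate 6 and the highest without combination replicate 1. The replicate numbers did not pair the libraries: over 36 same-numbered pairs the correlation of deviations ran from -0.75 to 0.73, 18 were over 0.1, and 6 of 24 libraries correlated best with their own number. Libraries numbered 5 stood apart, with a mean correlation of 0.561 and olfactory bulb scores of 1.58 to 3.46, while the other numbers had means from -0.16 to 0.11. The replicate block left every member on its side of the threshold (Aldoc with sarcosine at -0.28, adjusted p = 0.0195) and gave 18 calls for the combination against vehicle and 131 for the interaction. With 6 libraries in a group, intervals as wide as those of Gfap and Sox9 leave moderate changes undetectable.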
